A study of Drosophila montana with 23 samples.

Results

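Diapausing females of Drosophila montana at 50 days of age (50D, 3 arrays) were compared with diapausing females at 7 days (7D, 3 arrays). The 6 arrays are those whose labels give these ages together with autumn and diapause, out of 23 arrays in the study, and all 218 genes with a probe on the array were tested. The question was how expression differs between the maintenance phase of diapause (50D) and its initiation phase (7D).

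All females came from 1 isofemale strain, 175OJ8, founded by a single female from northern Finland. They were moved as freshly emerged adults into a climate chamber set to late summer conditions with short days, and the chamber then followed the seasons of their home site, so that age and season cannot be told apart. Each array held RNA of 2 pooled whole females. The non-diapausing females at 50 days (50ND, 3 arrays) and 7 days (7ND, 2 arrays) had entered the same chamber in long summer days. They are used below only to ask whether a change with age differed from that in diapausing females.

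In adult reproductive diapause an insect survives an unfavourable season with its ovaries arrested before yolk uptake. Day length is the main cue in northern flies of this group, and low juvenile hormone and insulin signalling are known from Drosophila melanogaster as parts of the arrest. The fly then feeds less, lowers its metabolic rate and keeps reserves as fat and sugars. Gene roles below are those known from D. melanogaster. No sequence is shown, because the files used here name the probes without their bases.

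The values are normalized intensity, which is the Cy3 brightness of a probe after background subtraction and quantile normalization, on a linear scale. Each gene was read from its brightest probe, and levels are compared within a gene and not between genes. Log2 fold changes are 50D over 7D with their standard error (SE), from limma over all 23 arrays, and calls required both a 2-fold difference or more and an adjusted p under 0.05. In whole females, fewer cells of a type and less RNA per cell cannot be told apart.

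The median raw intensity was 38 to 49.7 on the 50D arrays and 19.4 to 27.6 on the 7D arrays, and 63.5% to 74% and 59.5% to 67% of spots were well above background. Normalized arrays had r = 0.99 to 0.994 within 50D, 0.991 to 0.995 within 7D and 0.937 to 0.953 across them, over genes. Each of 3 slides held 1 array of 50D and 1 of 7D. One array of another group, 7ND replicate c, stood apart, with a median intensity of 530 and 98.5% of spots well above background. On this array 3764 spots were flagged as outliers, against 69 to 234 on the others. The fit to its spike-in controls had an R2 of 0.66, against 0.99 or more on the others. It is not in either group compared, but it enters the quantile normalization, the choice of each gene's probe and the spread that limma shares over the groups.

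At 50 days the diapausing females had lower expression of the gut genes Jon25Bi and ninaD and of the muscle genes Mhc and sls. Most listed genes of glycolysis and carbohydrate use were lower too. Several chaperone genes and a fatty acid desaturase gene were higher. Of the 218 genes, 25 were higher in 50D (11.5%), 24 were lower (11%) and 169 were not called. The arrays of the 50D and 7D females did not overlap in 149 genes (68.3%), of which 95 had 50D above 7D (43.6%) and 54 had it below (24.8%). Every count for a gene group below is to be read against these shares. All 49 called genes were among those whose arrays did not overlap. Without 7ND replicate c in the fit 33 genes were higher and 28 lower, with all 49 still among them.

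**Figure D1:**
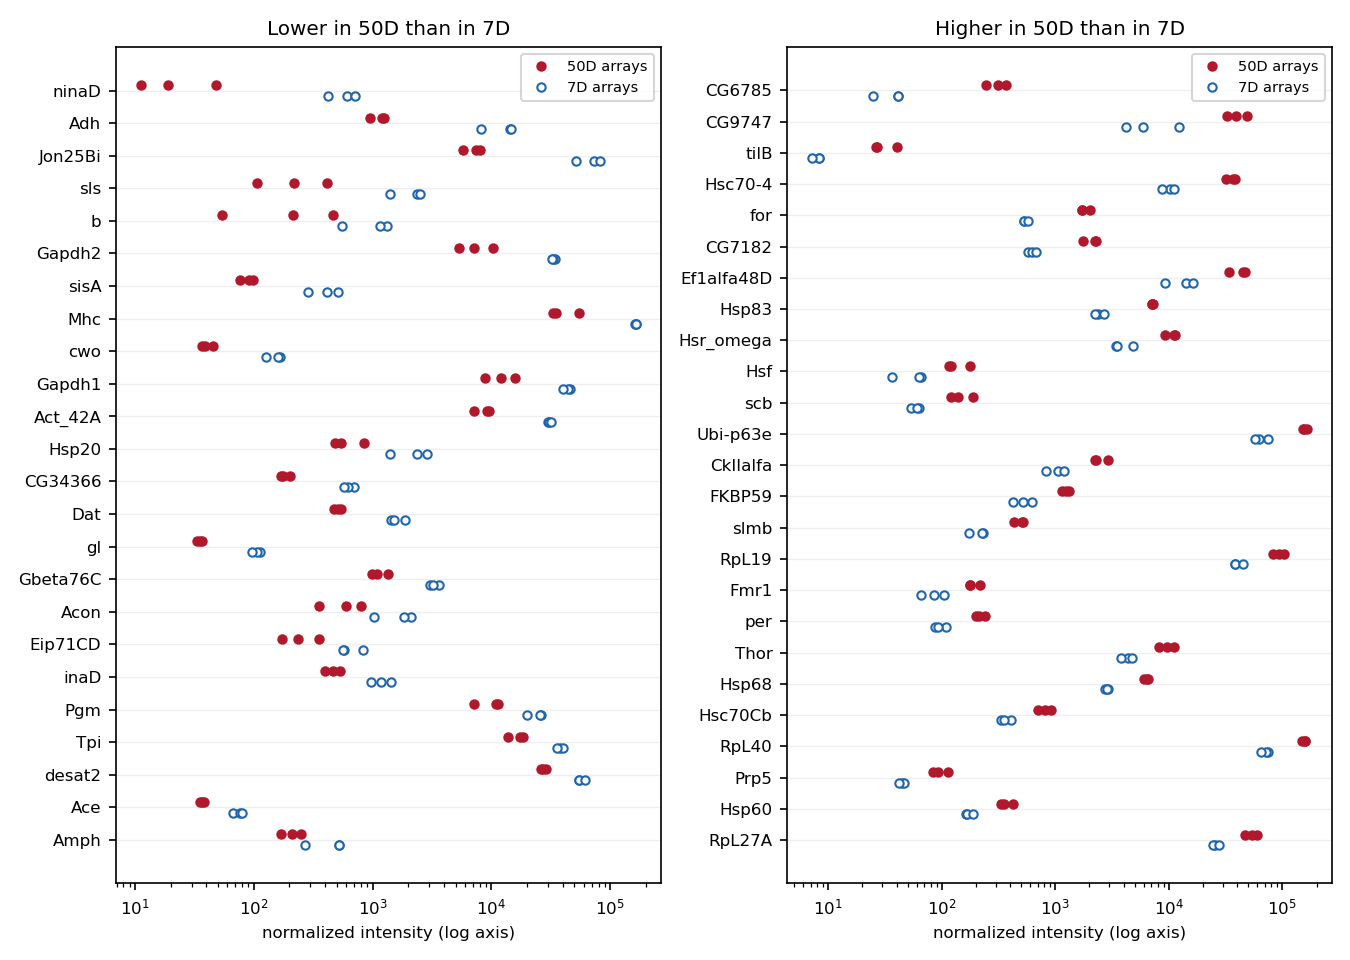
Normalized intensity (log axis) of the 24 genes called lower and the 25 called higher in 50D. Filled points are the 3 arrays of 50D and open points the 3 arrays of 7D, and in every row the 2 sets of points are apart.

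The median log2 fold change of all genes was 0.20 after quantile normalization, 0.10 with 75th-percentile scaling, 0.73 with spike-in scaling and 1.07 with no normalization between arrays. The split of the calls moved with this shift, as 51.0% of called genes were higher after quantile normalization, 43.1% with 75th-percentile scaling, 80.3% with spike-in scaling and 90.1% with none. Under all of these and in the authors' table as well, 16 of the 25 higher and 11 of the 24 lower genes were called the same way. Of the 24 lower genes, 14 were called with spike-in scaling and 11 with none. Those lost under both include Acon, Dat, Eip71CD, Ace, Amph and CG34366. Several gene groups below are therefore set beside the median of all genes, and losses under single scalings are named for some genes only.

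The gut genes had the largest median change of all lists (-3.99). NinaD, a scavenger receptor through which the fly takes up carotenoids, had 47.8, 18.9 and 11.2 in the 50D females, against 426, 609 and 711 in the 7D females. Its log2 fold change was -4.72 (SE 0.60, adjusted p = 2.08e-05), so that 7D was 26.3-fold higher. The 50D values were dim, so the size of this fold is imprecise. The 50D arrays differed among themselves, with replicate a above the others, and within the 3 slides the difference was -3.15, -5.01 and -5.99. Jon25Bi, a serine protease of the Jonah family that digests food protein, had 7365, 5755 and 8093 in 50D and 72664, 82013 and 51628 in 7D. It was 9.64-fold higher in 7D (log2 fold change -3.27, SE 0.46, adjusted p = 3.06e-05). All 5 probe pairs of Jon25Bi and both of ninaD fell. The summed intensity of these 2 gut markers was 5774 to 8104 in 50D and 52340 to 82622 in 7D, nearly all of it from Jon25Bi, and its part in the other changes was not tested. The list was written with the changes of its members known, and 1 more gene of it, Jon66Cii, has no probe.

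The muscle genes Mhc and sls were lower too, as was a cytoplasmic actin gene, and these 3 make up the muscle and cytoskeleton list. Mhc, the heavy chain of the muscle motor myosin, had 35146, 55170 and 33239 in 50D, against 162243, 165866 and 165642 in 7D. The 7D values all lay close to the ceiling of the normalized scale (17.36 in log2), which limits the difference that can be seen. After normalization the log2 fold change of Mhc was -2.04 (SE 0.32, adjusted p = 8.43e-05), and with 75th-percentile scaling it was -3.30. Sls, a giant titin-like protein of the sarcomere, had 106, 417 and 217 in 50D and 2349, 2515 and 1401 in 7D, with a log2 fold change of -3.25 (SE 0.65, adjusted p = 0.00079). Its other probes changed less, and the mean over its probe pairs was -1.42. Act42A (Act_42A on the array), a cytoplasmic actin, had 7184, 9651 and 9117 in 50D and 29940, 30895 and 31867 in 7D, with a log2 fold change of -1.85 (SE 0.28, adjusted p = 6.31e-05). Actin genes are alike in sequence, so its probes may also have read other actins. These changes were called in all scalings.

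The list of glycolysis and carbohydrate enzymes fell together, and it also holds the alcohol dehydrogenase Adh and the aconitase Acon. Of its 8 genes 6 were called lower, 0 higher, and the arrays of all 8 had 50D below 7D. Their median log2 fold change was -1.41, against 0.20 for all genes, and stayed between -2.04 and -1.07 over the other scalings. Adh, the alcohol dehydrogenase, had 1253, 946 and 1199 in 50D and 8220, 14422 and 14603 in 7D. Its log2 fold change was -3.42 (SE 0.47, adjusted p = 2.69e-05), and all 3 of its probe pairs fell. Gapdh2, a glyceraldehyde-3-phosphate dehydrogenase of glycolysis, had 5385, 10329 and 7183 in 50D and 34682, 33144 and 32240 in 7D (log2 fold change -2.18, SE 0.30, adjusted p = 3.06e-05). Its close copy Gapdh1 had 8794, 15891 and 12173 in 50D and 46217, 43864 and 40303 in 7D, a log2 fold change of -1.86 (SE 0.29, adjusted p = 7.88e-05). The probes of such copies may read both genes. In both, the lowest 50D array was replicate a.

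The other enzymes of that list changed less. Tpi, triosephosphate isomerase, had 13858, 17613 and 18649 in 50D, against 38105, 40102 and 35878 in 7D (log2 fold change -1.20, SE 0.24, adjusted p = 0.000685). Pgm, the phosphoglucomutase that links glycogen to glycolysis, had 7133, 10944 and 11296 in 50D and 26124, 25573 and 20078 in 7D. Its log2 fold change was -1.31 (SE 0.31, adjusted p = 0.00363) on the brightest probe and -2.20 as the mean over probe pairs. Acon, an aconitase that turns citrate into isocitrate, had 356, 803 and 596 in 50D and 2095, 1828 and 1023 in 7D (log2 fold change -1.51, SE 0.37, adjusted p = 0.00457). It was not called with spike-in scaling (-0.97) or with no normalization (-0.63). Treh, which splits the blood sugar trehalose, had -1.19 (SE 0.49, adjusted p = 0.0807) and was called with 7ND replicate c out of the fit (adjusted p = 0.022) and in the authors' table (adjusted p = 0.0237).

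Among the 8 desaturase and cytochrome b5-related genes, which act on fatty acids, 1 was higher and 1 lower. CG9747, a fatty acid desaturase gene, had 32400, 49122 and 38769 in 50D, against 4232, 5889 and 12327 in 7D. It rose 5.86-fold (log2 fold change 2.55, SE 0.46, adjusted p = 0.000355), and was called under every scaling. Replicate c of 7D lay above the other 7D arrays but well under all 50D arrays. Desat2, another desaturase gene, had 28704, 26119 and 27319 in 50D and 54475, 54397 and 61093 in 7D (log2 fold change -1.05, SE 0.30, adjusted p = 0.0106), and fell just under a 2-fold change without 7D replicate c (-0.99). The remaining 6 lay between -0.81 and 1.14.

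**Figure D2:**
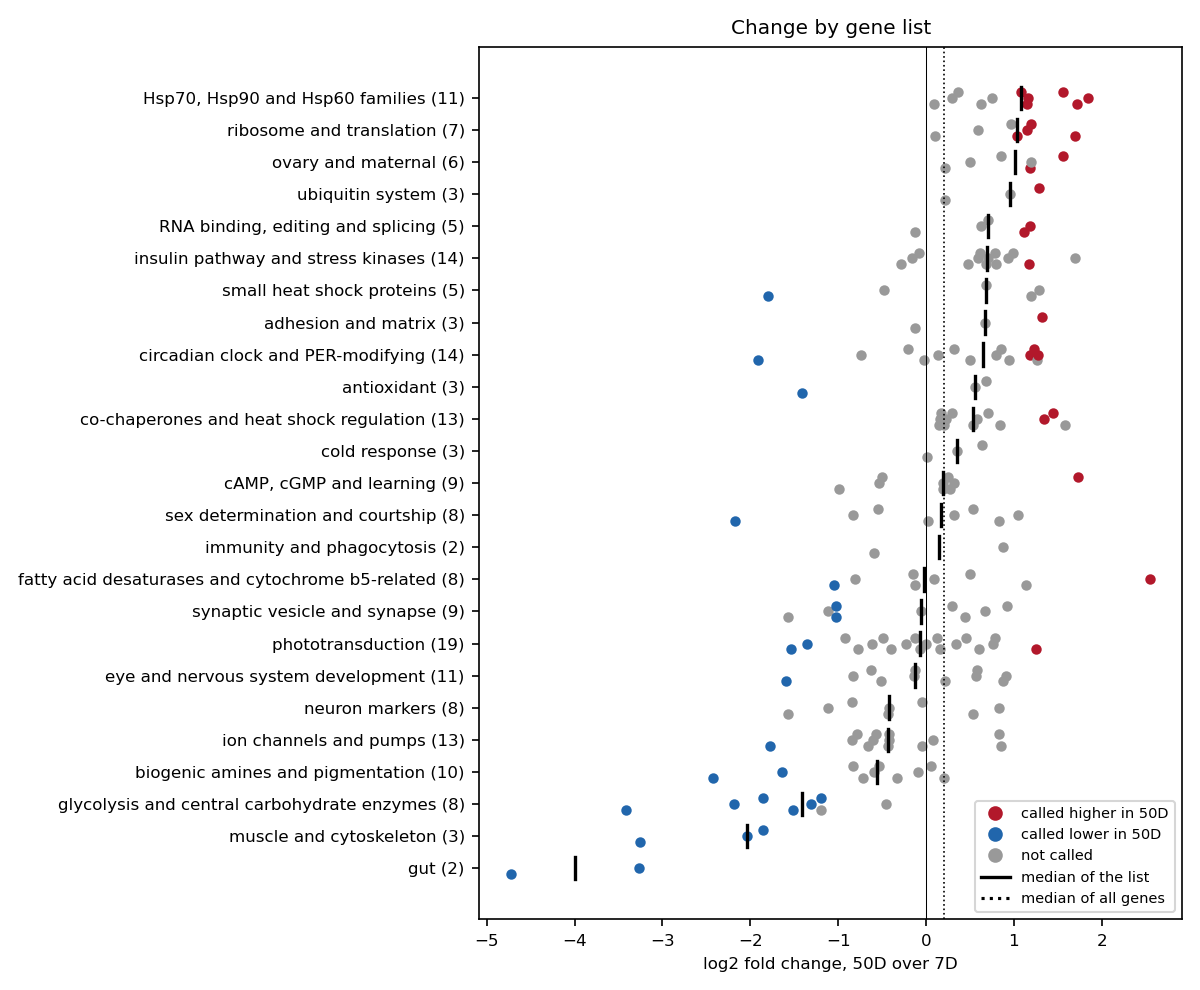
Log2 fold change of 50D over 7D for each gene of the 25 lists (number measured in parentheses), with the list median as a bar and the median of all genes (0.20) as a dotted line. The gut, muscle and cytoskeleton, and glycolysis and carbohydrate lists have the lowest medians (-3.99, -2.04 and -1.41). The Hsp70, Hsp90 and Hsp60 list (1.08) and the ribosome list (1.03) have the highest after quantile normalization. With 75th-percentile, spike-in or no scaling the Hsp70, Hsp90 and Hsp60 list lies below the ovary and maternal list (0.75 against 1.03 with 75th-percentile scaling). A gene in more than 1 list is drawn in each.

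Chaperone genes formed the largest group among the higher genes. Chaperones hold and fold other proteins, and the Hsp70, Hsp90 and Hsp60 families are the main classes that use ATP. Of their 11 genes 6 were called higher (54.5%, against 11.5% of all genes) and 0 lower, with a median log2 fold change of 1.08. The median stayed above that of all genes in each scaling (0.75, 1.38 and 1.72 with 75th-percentile, spike-in and no scaling).

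Hsc70-4, an Hsp70 present without stress, had 38339, 31766 and 36989 in 50D and 10281, 8760 and 11003 in 7D. It rose 3.57-fold (log2 fold change 1.84, SE 0.23, adjusted p = 2.08e-05), and missed the call with 75th-percentile scaling (0.75). Hsp83, the Hsp90 of flies, had 7054, 7084 and 7276 in 50D, against 2389, 2659 and 2217 in 7D (log2 fold change 1.56, SE 0.29, adjusted p = 0.000388). The spread of its 50D arrays was the smallest of these genes, with an SD of 0.02 on the log2 scale. CG7182, of the Hsp70 family, had 2274, 1749 and 2215 in 50D and 578, 624 and 682 in 7D (log2 fold change 1.72, SE 0.48, adjusted p = 0.00967). Hsp68, which heat induces, had 6361, 6605 and 6035 in 50D and 2760, 2888 and 2871 in 7D (log2 fold change 1.16, SE 0.23, adjusted p = 0.000657), and missed the call with 75th-percentile scaling (0.82). Sequences of Hsp70 genes are alike and may share signal. The mitochondrial Hsp60 and Hsc70Cb, an Hsp110 that recharges Hsp70, had log2 fold changes of 1.08 and 1.15 (adjusted p = 0.00508 and 0.0334). Hsc70Cb lost its call whichever of the 6 arrays was left out, with log2 fold changes of 1.07 to 1.25.

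Among the 13 co-chaperones and heat shock regulators 2 were higher and 0 lower. Hsf, the transcription factor that switches on heat shock genes, had 116, 120 and 177 in 50D, against 65.4, 63.5 and 36.6 in 7D. It had a log2 fold change of 1.34 (SE 0.37, adjusted p = 0.00967), which was not called without 50D replicate c (1.14) or without 7D replicate c (1.07). Hsr_omega, a long non-coding RNA that gathers at heat shock sites in the nucleus, had 11340, 11017 and 9295 in 50D and 3431, 3476 and 4806 in 7D (log2 fold change 1.45, SE 0.22, adjusted p = 6.85e-05). Hop, which joins Hsp70 to Hsp90, had 1361, 1543 and 1644 in 50D and 497, 512 and 507 in 7D. These groups were far apart, yet with all arrays its log2 fold change of 1.58 had an SE of 0.73 (adjusted p = 0.121), and without 7ND replicate c it passed (adjusted p = 2.86e-06).

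The small heat shock genes did not move as 1 group, with 0 called higher and 1 lower of 5. Hsp20 had 482, 851 and 544 in 50D and 2378, 2854 and 1396 in 7D (log2 fold change -1.80, SE 0.55, adjusted p = 0.0162), and its call was lost in 4 of the 6 fits that left out 1 array. Hsp23 and Hsp26 had log2 fold changes of 1.29 and 1.19 with SEs of 0.75 and 0.82 (adjusted p = 0.216 and 0.307). Hsp23 had 2542, 2018 and 2717 in 50D, against 817, 908 and 1281 in 7D, and it was called without 7ND replicate c (adjusted p = 0.0399) but not in the authors' table.

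Of the 7 genes of the ribosome and translation 4 were called higher and 0 lower after quantile normalization, whereas 0 of the 4 were called with 75th-percentile or spike-in scaling and 2 with no normalization (Ef1alfa48D and RpL27A). Ef1alfa48D, the elongation factor that brings tRNA to the ribosome, had 45255, 34206 and 46840 in 50D and 14295, 16408 and 9201 in 7D (log2 fold change 1.69, SE 0.32, adjusted p = 0.00057). RpL19, RpL40 and RpL27A, proteins of the large subunit, had log2 fold changes of 1.19, 1.15 and 1.03 (adjusted p = 6.85e-05, 9.16e-05 and 0.000196). RpL40 had 159127, 148635 and 157806 in 50D and 74289, 71243 and 64878 in 7D, so that its 50D arrays lay close to that ceiling. With 75th-percentile scaling RpL19, RpL40 and RpL27A had 0.00, -0.14 and 0.10, and the list median was 0.07, against 0.10 for all genes. The list median was 0.70 with spike-in scaling, where all genes had 0.73, and 1.04 with no normalization, where all genes had 1.07. The same was seen in Ubi-p63e, a polyubiquitin gene, which had 154770, 165695 and 153584 in 50D and 74536, 62661 and 57686 in 7D. Its log2 fold change was 1.29 (SE 0.18, adjusted p = 2.69e-05) after quantile normalization and -0.01 with 75th-percentile scaling. RpL40 is made as a fusion with ubiquitin, so the probes of both genes may share signal.

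The array carries its probes in pairs, 1 forward and 1 reverse-complement, and 925 pairs cover the 218 genes. Which probe of a pair reads the sense RNA is not given in the sources used here, and the brighter one was used, so the direction of a gene whose 2 probes move apart depends on that choice. In the 24 higher genes with more than 1 such brighter probe above background, all of these probes rose in 20, and in the 23 lower genes all fell in 21. Averaged over the brighter probes of its pairs, each gene gave 25 higher and 23 lower calls, and 39 of the 49 called genes were among them. The calls of cwo, CG34366 and sisA were lost in this way, with means over pairs of -0.08, -0.12 and -0.91, as were those of FKBP59, Hsf, per, slmb, CkIIalfa, Hsp68 and scb. These means also take in brighter probes that were not above background. In sisA only the brighter probe with -2.17 was above background, and those with -0.55, -0.51 and -0.40 were not. The dimmer probes did not always follow. All dimmer probes above background fell in RpL19 (3), RpL40 (4), RpL27A (2), Ubi-p63e (2), Ef1alfa48D (3) and Hsr_omega (3), while the brighter ones rose. The dimmer probes of these genes lay 4.44 to 10.64 below their brighter partners on the log2 scale. In cwo the brightest probe and its partner were 0.99 apart. The partner of the brightest probe went the other way in 8 of 17 higher genes where it was above background, and in 1 of 15 lower genes.

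**Figure D3:**
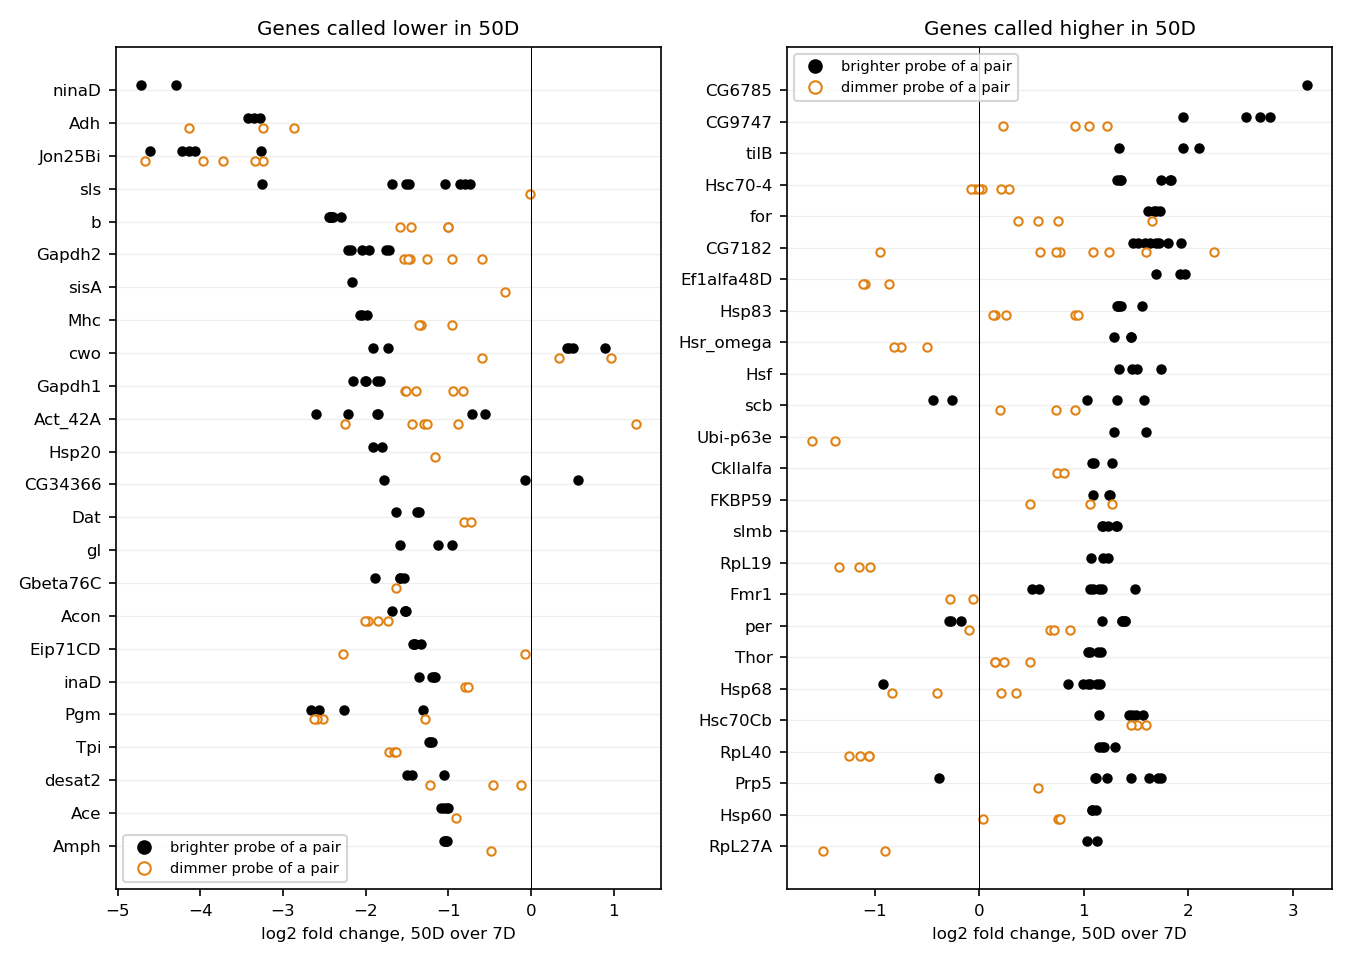
Log2 fold change of 50D over 7D of the single probes of the called genes, where above background on at least 3 of the 6 arrays. Filled points are the brighter probes of forward and reverse-complement pairs and open points the dimmer ones, which lie on the other side of 0 in RpL19, RpL40, RpL27A, Ubi-p63e, Ef1alfa48D and Hsr_omega.

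The 14 genes of the insulin pathway and the stress kinases had a median log2 fold change of 0.69, against 0.20 for all genes. The arrays of 10 of them had 50D above 7D and of 0 below, but 1 was called. This was Thor, the 4E-BP that holds back translation when insulin signalling is low, with 9722, 11174 and 8207 in 50D and 4370, 4713 and 3827 in 7D (log2 fold change 1.17, SE 0.28, adjusted p = 0.00363). With 75th-percentile scaling it was not called (0.71). The insulin receptor gene InR and p38b, a stress kinase, had log2 fold changes of 0.59 and 0.70 (adjusted p = 0.0284 and 0.0136), under a 2-fold change. For, a cGMP-dependent protein kinase that sets feeding and foraging, had 2019, 1707 and 1725 in 50D, against 527, 535 and 580 in 7D. It rose 3.31-fold (log2 fold change 1.73, SE 0.23, adjusted p = 2.69e-05) and was called in every scaling, while the other 8 genes of cAMP, cGMP and learning were not called. The nearest of these was Pka-C1, a catalytic subunit of protein kinase A, with -0.99 (SE 0.18, adjusted p = 0.000432).

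Of the 14 clock and PER-modifying genes, 3 were called higher and 1 lower. Per, the repressor of the daily clock, had 201, 240 and 212 in 50D and 109, 87.8 and 92.2 in 7D (log2 fold change 1.18, SE 0.43, adjusted p = 0.0479). Its call was lost whichever of the 6 arrays was left out, and 3 of its 8 brighter probes above background did not rise. CkIIalfa, a kinase that phosphorylates PER, had 2219, 2268 and 2929 in 50D and 1059, 1195 and 826 in 7D (log2 fold change 1.27, SE 0.45, adjusted p = 0.04). Slmb, which marks phosphorylated PER for breakdown, had 520, 434 and 508 in 50D and 229, 225 and 174 in 7D (log2 fold change 1.23, SE 0.41, adjusted p = 0.0284). The call of CkIIalfa was lost in all 6 fits that left out 1 array and that of slmb in 5. All brighter probes of CkIIalfa (3) and slmb (5) rose. Cwo, a repressor that trims clock output, had 45.0, 36.6 and 38.6 in 50D, against 168, 160 and 126 in 7D (log2 fold change -1.91, SE 0.46, adjusted p = 0.00405), and 2 of its 6 brighter probes fell. Its partner clock genes Clk, cyc and tim had log2 fold changes of -0.21, -0.02 and 0.32 and were not called.

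Phototransduction genes, which mark the photoreceptors, mostly stayed under the threshold, with 1 higher, 2 lower and a median of -0.07 over 19 genes. Gbeta76C, the beta subunit of the visual G protein, had 1091, 1340 and 995 in 50D and 3625, 3044 and 3240 in 7D (log2 fold change -1.54, SE 0.39, adjusted p = 0.00501). InaD, the scaffold of the light response, had 468, 532 and 400 in 50D, against 1440, 980 and 1169 in 7D (log2 fold change -1.35, SE 0.35, adjusted p = 0.00658). FKBP59, an immunophilin that binds the TRPL channel, had 1319, 1139 and 1236 in 50D and 517, 428 and 620 in 7D (log2 fold change 1.25, SE 0.24, adjusted p = 0.00057). The arrays did not overlap in 11 of the 19 genes, 5 with 50D above 7D and 6 with it below. The summed intensity, in which the brightest probes weigh most, was 59398 to 73118 in 50D and 56644 to 69109 in 7D, and the opsin genes ninaE, Rh3, Rh4, Rh5 and Rh6 lay between -0.49 and 0.16. Gl, a transcription factor needed to make photoreceptors, was the 1 called gene of 11 of eye and nerve development, with 36.4, 33.6 and 35.0 in 50D and 114, 106 and 97.6 in 7D (log2 fold change -1.59, SE 0.38, adjusted p = 0.00365).

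Of the 8 neuron markers 0 were called with all arrays, their median was -0.42, and their summed intensity was 903 to 1006 in 50D and 838 to 1072 in 7D. Gad1, which makes the transmitter GABA, had 54.4, 91.1 and 88.3 in 50D and 265, 275 and 157 in 7D (log2 fold change -1.57, SE 0.64, adjusted p = 0.0807). It was called without 7ND replicate c (adjusted p = 0.0313). Of the 9 synapse genes 2 were called lower, Ace, the acetylcholinesterase, at -1.02 (SE 0.25, adjusted p = 0.00415), and Amph, which bends membranes in nerve and muscle, at -1.02 (SE 0.30, adjusted p = 0.0125). Both lay at the 2-fold limit, and each lost its call in 3 of the 6 fits that left out 1 array. With no normalization Ace had -0.07 and Amph -0.09. Of 13 ion channel and pump genes only CG34366 was called, at -1.78 (SE 0.51, adjusted p = 0.0119). It was not called with spike-in scaling (-1.18) or with no normalization (-0.85).

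The 10 genes of biogenic amines and pigmentation had a median of -0.56, with 0 called higher and 2 lower. Dat, dopamine N-acetyltransferase, had 546, 477 and 515 in 50D and 1423, 1516 and 1875 in 7D (log2 fold change -1.64, SE 0.36, adjusted p = 0.00176). It was not called with spike-in scaling (-1.05) or with no normalization (-0.71). B, the black gene, which makes the beta-alanine used in cuticle tanning, had 53.9, 461 and 214 in 50D and 1318, 1156 and 551 in 7D. Its 50D arrays were spread the most of all called genes (SD 1.57 on the log2 scale), and its log2 fold change of -2.43 (SE 0.79, adjusted p = 0.0244) lay between -3.14 and -1.59 with 1 array left out, 3 of the 6 fits losing the call. Y, the yellow pigment gene, showed how the choice of probe can decide, at -0.09 on its brightest probe and -1.23, called lower, as the mean over its pairs. Every pair of y had a probe above background that fell strongly. It was the brighter probe in 1 pair (-4.54) and the dimmer in the others (-4.08 and -4.23), whose brighter partners had -0.09 and 0.94. Of the genes of sex determination and courtship, sisA, which counts X chromosomes in the embryo, was called, with 76.5, 97.8 and 90.8 in 50D and 516, 411 and 289 in 7D (log2 fold change -2.17, SE 0.26, adjusted p = 1.96e-05). Eip71CD, a methionine sulfoxide reductase, was the called gene among the 3 antioxidant genes, at -1.41 (SE 0.37, adjusted p = 0.00705), while Sod and Cat had 0.56 and 0.68 (adjusted p = 0.101 and 0.418). Eip71CD was not called with spike-in scaling (-0.82) or with no normalization (-0.48).

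The gene with the largest increase was CG6785, of unknown role, with 367, 313 and 247 in 50D and 24.7, 41.2 and 41.0 in 7D. It rose 8.81-fold (log2 fold change 3.14, SE 0.45, adjusted p = 3.94e-05), was called in every scaling, and is read by a single pair of probes. TilB, needed to build the motile cilia of hearing organs and sperm, had 26.1, 26.8 and 40.3 in 50D. The 7D arrays gave 8.27, 8.32 and 7.17 and were not well above background, so that tilB was at least 1.94-fold higher in 50D (adjusted p = 0.00111). Scb, an integrin alpha subunit of cell adhesion, had 121, 139 and 187 in 50D and 63.3, 53.2 and 60.7 in 7D (log2 fold change 1.32, SE 0.42, adjusted p = 0.0235), and lost its call in 3 of the 6 fits that left out 1 array. Of the 34 genes in no list, CG6785 and tilB were the 2 called.

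Among 5 genes that act on RNA, 2 were called higher. Fmr1, the fragile X protein that holds back translation, had 215, 176 and 178 in 50D and 105, 84.7 and 65.4 in 7D (log2 fold change 1.18, SE 0.32, adjusted p = 0.00954). Prp5, an RNA helicase of splicing, had 92.5, 83.9 and 114 in 50D and 44.2, 46.2 and 42.0 in 7D (log2 fold change 1.12, SE 0.34, adjusted p = 0.0174). Fmr1 and Hsp83 belong also to the 6 genes rich in the ovary or laid down in the egg, of which 2 were called higher and 0 lower. The summed intensity of these 6 was 11169 to 12344 in 50D and 5146 to 5413 in 7D without overlap, and its part in the other changes was not tested. The brightest probes weigh most in this sum, and Hsp83 alone had 7054 to 7276 in 50D and 2217 to 2659 in 7D. Yolk protein genes were not on the gene list.

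In the lists with no called gene, the cold response gene Fst had a log2 fold change of 0.64 (SE 0.56, adjusted p = 0.448), and regucalcin had 0.01. Drpr, a receptor for the engulfment of dying cells, had 924, 1098 and 1024 in 50D and 540, 512 and 604 in 7D, a log2 fold change of 0.88 (SE 0.24, adjusted p = 0.00931). It was among 12 genes, 9 higher and 3 lower, that had an adjusted p under 0.05 and less than a 2-fold change. The 12 genes that were called in addition when 7ND replicate c was out of the fit, 8 higher and 4 lower, included Hop, Treh, Gad1 and Hsp23. Of these 12 genes, 11 were also called in the authors' table. There the column for 7ND replicate c had r = 0.698 with the scan of that array and was not closest to it. Calls from that table therefore do not show that these genes pass with this scan in the fit. With the 6 arrays alone all 12 were called.

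The levels of 6 genes are given for the later diapausing groups as a description. They had the largest changes, 3 lower and 3 higher, among called genes above background on 1 array or more of each group. Adh had 119 to 343 in females at 150 days (150D, winter) and 919 to 2585 at 220 days (220D, spring, with diapause starting to end), all below the 7D arrays. NinaD stayed low, at 13 to 80.8 in 150D and 35 to 38.8 in 220D. Jon25Bi had 16581 to 39298 in 150D and 5241 to 23886 in 220D, also below all 7D arrays. CG6785 had 1070 to 4063 in 150D and 554 to 883 in 220D, above every 7D and 50D array. CG9747 had 52907 to 64294 in 150D but 7499 to 13974 in 220D, where it overlapped the 7D arrays. Hsc70-4 had 33817 to 35686 in 150D and 34838 to 36786 in 220D, within its 50D range and above every 7D array.

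**Figure D4:**
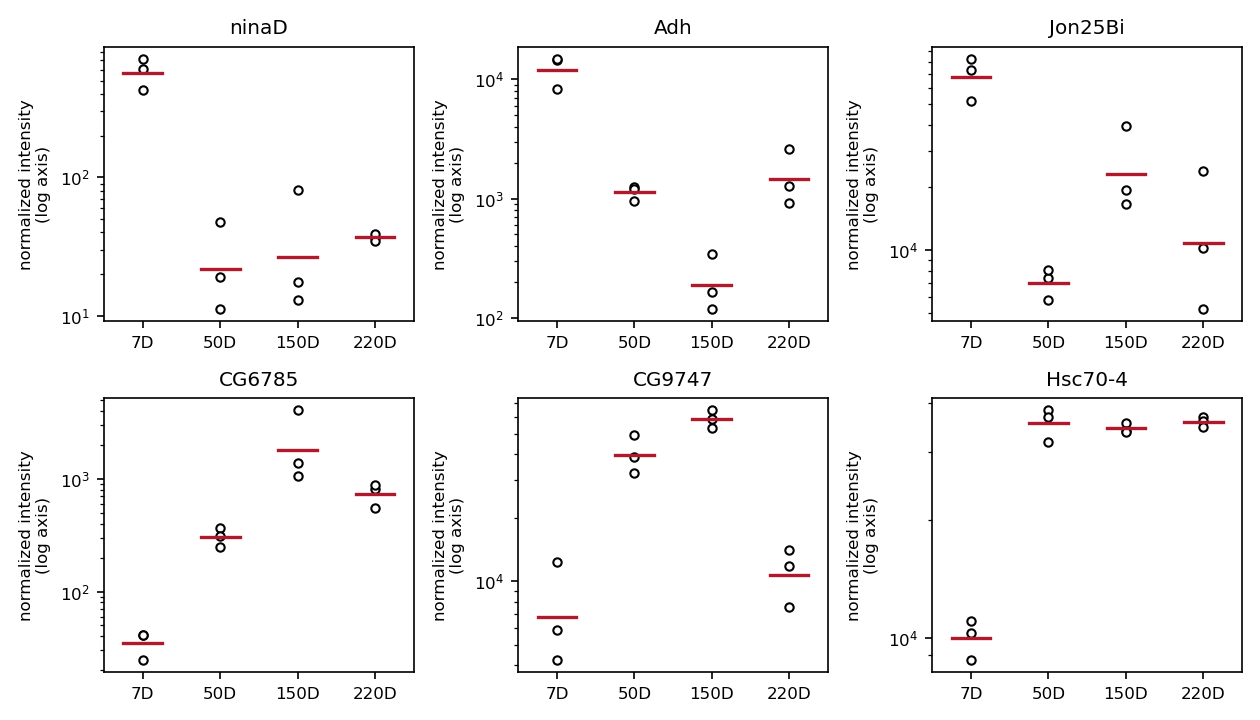
Normalized intensity (log axis) in diapausing females at 7, 50, 150 and 220 days. Shown are the 3 genes with the largest decrease (top) and increase (bottom) in 50D over 7D among called genes above background on 1 array or more of each group. Points are arrays and bars are means on the log scale. NinaD, Adh and Jon25Bi stay below their 7D level at 150 and 220 days, and CG9747 overlaps its 7D range at 220 days.

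To ask whether these changes come with age alone, the difference 50D minus 7D was set against 50ND minus 7ND. This difference of differences passed for 19 genes (8.72%) in limma with all arrays and for 20 (9.17%) with 7ND replicate c left out, which leaves 1 array of 7ND, assumed to vary like the others. The 10 genes that passed both times in the same direction (4.59%) were all among the 49 called genes. Adh, with a log2 fold change of -3.42 in diapausing females, had -0.03 in non-diapausing females, and 0.05 against 7ND replicate a alone. The difference was -3.38 (SE 0.70, adjusted p = 0.00906), and -3.46 (SE 0.80, adjusted p = 0.014) without replicate c. Gapdh2, Gapdh1 and Tpi likewise had -2.18, -1.86 and -1.20 in diapausing and -0.25, -0.13 and -0.05 in non-diapausing females. Of the higher genes, for had 1.73 in diapausing and -0.01 in non-diapausing females, a difference of 1.74 (SE 0.34, adjusted p = 0.00858). Hsc70-4 had 1.84 in diapausing and 0.31 in non-diapausing females, with a difference of 1.52 (SE 0.34, adjusted p = 0.0157). Some other called genes moved the same way in non-diapausing females as in diapausing ones. Mhc had 101973 to 165663 in 7ND and 19003 to 32150 in 50ND, and sls 375 to 1052 and 121 to 307. Act42A had 17894 to 24102 in 7ND and 7643 to 9008 in 50ND, and Jon25Bi 111047 to 142598 and 29770 to 76070. CG6785 rose, from 16.6 to 27.2 in 7ND to 89.5 to 148 in 50ND. None of these was among the 10 genes. The 50ND females had entered the chamber in summer and did not diapause, so diapause and season cannot be told apart in this contrast. It also uses the same 50D and 7D arrays as the calls, so its overlap with the called genes is partly built in.

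**Figure D5:**
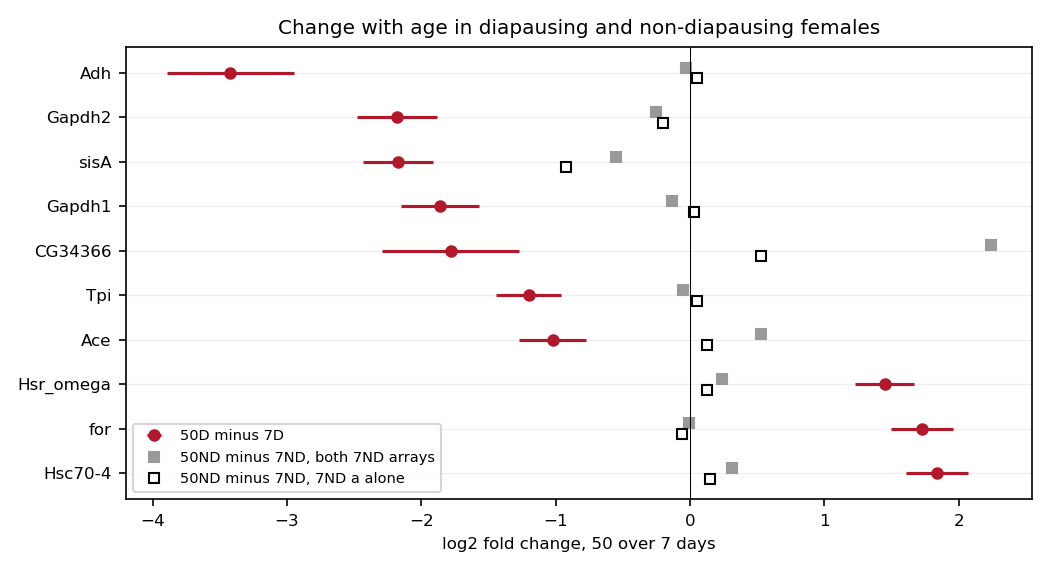
Log2 fold change of 50 over 7 days for the 10 genes whose change differed between diapausing and non-diapausing females in both fits. Circles are 50D over 7D with the SE, filled squares 50ND over 7ND with both 7ND arrays, and open squares with 7ND replicate a alone. Adh, Gapdh1, Gapdh2, Tpi and for lie near 0 in non-diapausing females.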

How the data were processed

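The scanner files hold, per spot, Cy3 intensity that the authors' Feature Extraction software (10.7.1.1) had background-subtracted and detrended, not normalized between arrays. A deposited table holds 1 intensity per probe that the authors quantile-normalized with limma. Here the 14800 gene spots per array were taken to log2 and quantile-normalized over 23 arrays, and the 8 spots of a probe averaged without outlier flags (43 probe-array cases, all flagged, kept all). Each gene was read from the probe that was brightest on average across all 23 arrays. That gave 218 of 219 genes, regucalcin through probes named Dca. A probe was above background on an array where over 0.5 of its spots were. Group means were compared with lmFit and eBayes of limma 3.58.1 (R 4.3.3), with Benjamini-Hochberg adjustment over the 218 genes. The difference between diapausing and non-diapausing females was called at an adjusted p under 0.05 alone.

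"At least" folds set the mean of the bright group against, per array, the higher of the lowest signal well above background and the probe's own value. Named genes were the top 15 called genes by increase and the top 15 by decrease, the called members of each list or else its member with the largest change, and genes the study names. InR, p38b, Pka-C1, y, Treh, Hop, Hsp23, Hsp26, Sod, Cat, regucalcin, Clk, cyc, tim and the opsin genes were named after their values were seen. The members and lists were chosen with earlier results of these data known. The labels do not say that replicates came from separate rearings, so p-values measure the spread between these samples. The number of arrays limits the precision. The fit and the calls were tested on simulated normalized values with normal noise, so that test did not cover the normalization or the choice of probe.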

Additional observations from a re-analysis of the deposited data

Results flagged for a closer look

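The change with age differed between diapausing and non-diapausing females in 10 named genes, by limma's test of that difference, both with all arrays and without 7ND replicate c. The change 50D minus 7D exceeded 50ND minus 7ND in for by 1.74, in Hsc70-4 by 1.52 and in Hsr_omega by 1.21 on the log2 scale (adjusted p = 0.00858, 0.0157 and 0.0305). It lay below it in Adh (-3.38), CG34366 (-4.02), Gapdh2 (-1.92), Gapdh1 (-1.73), sisA (-1.61), Ace (-1.54) and Tpi (-1.15), with adjusted p = 0.00906, 0.00858, 0.0157, 0.022, 0.0157, 0.0158 and 0.0485. Without 7ND replicate c the values were 1.79, 1.69 and 1.32 for the first 3 and -3.46, -2.31, -1.98, -1.89, -1.25, -1.14 and -1.24 for the others. CG34366 depended most on that array, as its change in non-diapausing females was 2.24 with it and 0.53 without it. Groups of 3 arrays were not searched for single arrays that lie far out.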

How the results depend on the processing

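Leaving out 1 of the 6 arrays gave 17 to 24 higher and 20 to 25 lower genes. Through all 6 of these fits 15 higher and 19 lower genes kept their call. The others lost it without 50D replicate a (Hsp60 0.98), 7D replicate c (desat2, Fmr1), 50D or 7D replicate c (Hsf, Prp5), 50D replicate a or 7D replicate b (RpL27A 0.95), or in 3 or more fits (Ace, Amph, b, Hsp20, scb, slmb, CkIIalfa, Hsc70Cb and per). With no normalization 100 genes were higher and 11 lower, and with spike-in scaling 57 and 14. Alone, the 6 arrays gave 38 higher genes and 29 lower. Averaging every probe of a gene, both orientations included, gave 9 higher and 18 lower, and the mean of its probes above background, chosen after seeing the data, 12 and 22. The mean of the brighter probes of the pairs, also chosen after seeing the data, gave 25 and 23. With 75th-percentile scaling RpL40 had -0.14 and Ubi-p63e -0.01. With the mean of all probes RpL19 had -0.01, RpL27A -0.06 and Ubi-p63e -0.02, and the same 3 values came from the mean of probes above background. For these the cause was not tested. The counts of higher and lower genes were 22 and 29 with 75th-percentile scaling, 34 and 28 in the authors' table, 19 and 23 with normexp, 25 and 24 with the filter on dim probes (203 genes) and 25 and 24 with the slide as a block. Replicate letters share a slide in 50D and 7D, but the deviations of same-letter arrays had r = -0.18, 0.26 and -0.15, so the letters were not taken to pair the samples. The fit with the letter as a replicate block gave 26 higher and 24 lower genes. No alternative but the mean of all probes or of those above background and 75th-percentile scaling turned the direction of a called gene, and 4 higher and 9 lower genes were called under every one (CG6785, CG9747, CG7182 and for, and Act42A, Adh, Gapdh1, Gapdh2, Jon25Bi, Mhc, ninaD, Pgm and Tpi).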
